A study of Mus musculus with 6 samples.

Results

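Cytochrome P450 genes were taken from the deposited gene table as every row whose name has the form Cyp, a number, 1 or more letters and a number, and whose counts over the 6 libraries summed to at least 30. This gave 39 genes of the 94 rows with such a name, in a table of 47729 rows. Of the other 55 genes, 29 had no count in any library and 26 had 1 to 29 counts in all. The rule used the summed level alone, so the presence of these genes is no result, while the comparison of the groups was not part of it. The members nearest to the limit were Cyp2t4 with 34 counts and Cyp2u1 with 110, and the nearest genes left out were Cyp4a29 with 25 counts and Cyp2a5 with 19.

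The libraries came from the epidermis of wild-type C57BL/6 mice, 3 from skin that received AKBA gel and 3 from skin that received a control gel without AKBA. AKBA commonly stands for acetyl-11-keto-β-boswellic acid, a plant triterpenoid from the resin of Boswellia trees. Dispase II was used to free the epidermis from the dermis, and the RNA was sequenced on an Illumina HiSeq. The control libraries' descriptions hold the letters IMQ, which are not spelled out, and the sources used here do not say whether either group had a further treatment, nor whether each library of a group is from an animal of its own. The p-values therefore measure the spread between libraries, which may be technical.

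Cytochrome P450 enzymes are heme proteins that insert oxygen into lipids, steroids, retinoids, vitamin D and foreign compounds. Most sit in the endoplasmic reticulum and take electrons from P450 reductase (Por), and a smaller set in mitochondria takes them from ferredoxin (Fdx1) and its reductase (Fdxr). In skin they are known for making epoxides of arachidonic acid in differentiating keratinocytes, for the long hydroxylated fatty acids of the barrier ceramides, and for local handling of retinoic acid, vitamin D and sterols.

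The 39 genes took 0.113%, 0.108% and 0.0943% of the counts in AKBA replicates 1 to 3, and 0.0996%, 0.0874% and 0.0755% in control replicates 1 to 3. The groups thus overlapped in the share of P450 transcripts, through the first control library. Without Cyp2b19, the keratinocyte epoxygenase, the shares were 0.0930%, 0.0792% and 0.0837% against 0.0914%, 0.0819% and 0.0717%. The libraries held 19066045 to 22760432 counts, at which 3 counts correspond to 0.132 to 0.157 CPM before TMM scaling. All other levels in CPM are counts relative to the TMM-scaled library size. Markers of basal (10854 to 32900 CPM in sum) and suprabasal keratinocytes were abundant, and those of fibroblasts (18754 to 35288 CPM) were as abundant as the basal ones. Markers of skeletal muscle (3859 to 7030 CPM), adipocytes (480 to 748 CPM) and, very unevenly, hair follicle (110 to 3175 CPM) were present too. The values are therefore those of a mixed tissue. In bulk RNA of this kind, fewer cells of a type and less RNA per cell cannot be told apart.

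Compared per transcript length on the deposited FPKM scale, the highest member was Cyp2e1, which oxidises ethanol and small solvents, with a mean over the libraries of 70.5 FPKM. It was followed by Cyp4f39 with 57.3 FPKM, the mouse counterpart of the human enzyme that hydroxylates the very long fatty acids of skin ceramides. Cyp2b19 (30.8 FPKM), Cyp2g1 (26.7 FPKM), a gene best known from the olfactory mucosa, and Cyp26b1 (22.6 FPKM), which breaks down retinoic acid, came next. Per library, Cyp2e1 spanned 45.6 to 98.7 FPKM, Cyp4f39 45.7 to 80.6 FPKM, Cyp2b19 9.02 to 70.0 FPKM, Cyp2g1 8.79 to 38.2 FPKM and Cyp26b1 14.3 to 33.8 FPKM, so the ranges of these neighbours in the order overlapped. In counts, Cyp2e1, Cyp2b19, Cyp26b1 and Cyp4f39 together held 48.6% of all counts of the members. By role, the 16 CYP2 genes other than Cyp2r1, which is grouped with the vitamin D enzymes, summed to 187 FPKM and the 8 CYP4 genes to 90.2 FPKM. The liver P450 genes Cyp1a2, Cyp3a11 and Cyp2c29 had no count, and the summed hepatocyte markers lay between 1.14 and 2.49 CPM.

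**Figure D1:**
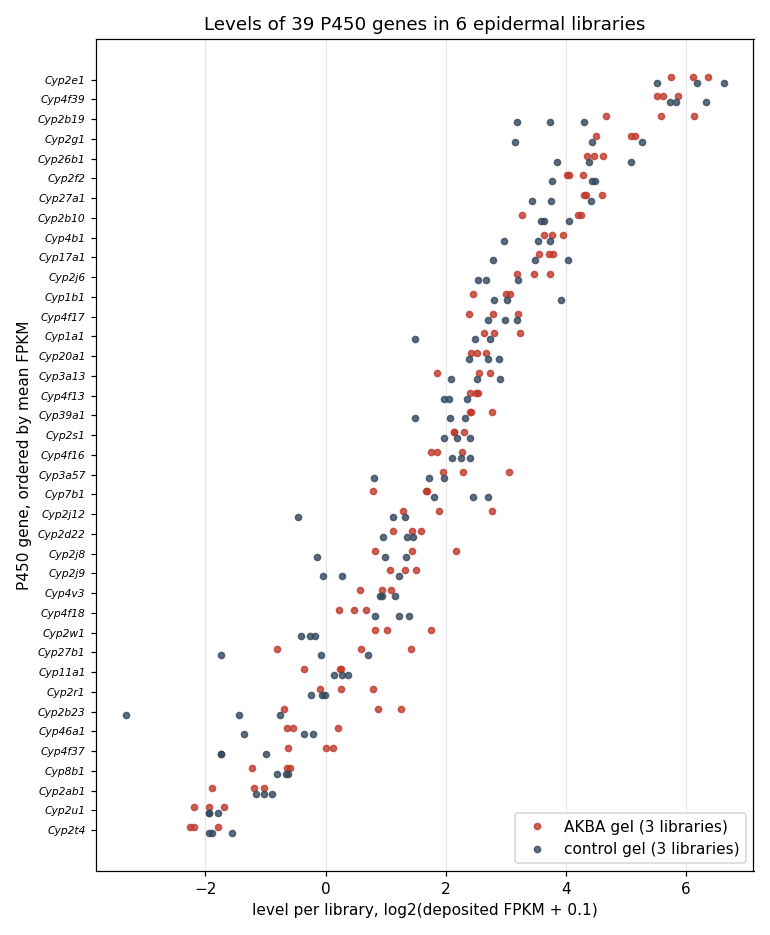
Level of each of the 39 P450 genes as log2(FPKM + 0.1) in each library (horizontal axis, log2 scale), with AKBA gel and control gel libraries in separate colours and genes ordered by mean FPKM. Cyp2e1 and Cyp4f39 lie at the top, Cyp2u1 and Cyp2t4 at the bottom, and the 6 points of Cyp2b19 and Cyp2b23 spread more widely than those of Cyp2s1.

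The comparison of AKBA gel with control gel asks which P450 transcripts differed with the compound. A test was made for the 38 members that passed edgeR's default filter on low counts, since Cyp2t4 fell below it. No member, and none of the 17023 genes tested (0.0% in either direction), passed edgeR's quasi-likelihood test after Benjamini-Hochberg adjustment at 0.05, and the smallest adjusted p was 0.331. At an unadjusted p under 0.05, 9 members were higher with AKBA (Cyp2b19, Cyp2b23, Cyp2w1, Cyp2j6, Cyp2j12, Cyp3a57, Cyp4f13, Cyp4f37 and Cyp39a1), which is 23.7% of those tested beside 6.45% of all genes tested. In the other direction 2 members, Cyp7b1 and Cyp4f18, were lower at that threshold, 5.26% beside 7.01% of all genes. The 3 libraries of each group did not overlap for 7 members that were higher (18.4% beside 9.28% of all genes) and 3 that were lower (7.89% beside 9.1%). The count of 9 moved with single libraries: it was 4 without AKBA replicate 1, control replicate 2 or control replicate 3, 5 without AKBA replicate 2, 7 without AKBA replicate 3 and 14 without control replicate 1. Over all genes the shares at that threshold moved too, to 3.13%, 3.28%, 3.48%, 3.42%, 8.38% and 8.95% in the same order. The count of 2 lower members became 1 without AKBA replicate 2 or control replicate 3, and 3 without AKBA replicate 3 or control replicate 2, where 3.76%, 3.996%, 7.55% and 5.12% of all genes were lower at that threshold.

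DESeq2's Wald test with Benjamini-Hochberg adjustment called 2 members higher, Cyp2b19 and Cyp2w1, and 0 lower, where it called 0.513% of its 17357 genes higher and 1.17% lower. The authors' deposited table calls 4 of the 39 members higher with AKBA (Cyp2b19, Cyp2b23, Cyp2w1 and Cyp4f37; 10.3%) and 0 lower. It calls 0.241% of its 47729 genes higher and 0.331% lower. Of those rows 19134 had no count, whereas every member had at least 30. The shares over all rows are therefore lower than among genes with counts, and are not a like background for the members. In that table every called gene had a log2 fold change of at least 1.0 in size and an adjusted p of at most 0.0494. In the edgeR fit the members' log2 fold changes ran from -0.99 to 2.60 with a median of 0.16, beside a median of 0.0037 over all genes. Their median size was 0.39, beside 0.19 over all genes, and 21 members had a positive value (55.3% beside 50.4% of all genes) and 17 a negative one (44.7% beside 49.6%). Of the 5 members highest by FPKM, only Cyp2b19 was at an unadjusted p under 0.05, where 23.7% of the members tested were higher and 5.26% lower. With so few genes this gives no relation between level and difference.

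**Figure D2:**
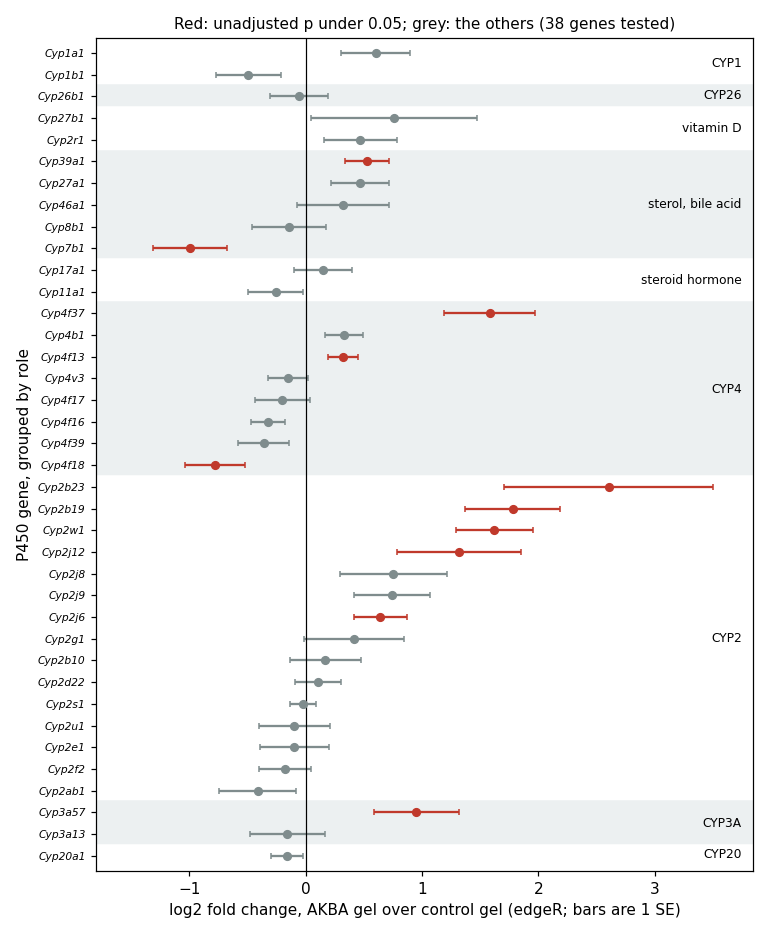
Log2 fold change (AKBA over control, edgeR) for the 38 members tested, with bars of 1 standard error, grouped by role, and members at an unadjusted p under 0.05 in red. The largest values are those of Cyp2b23, Cyp2b19, Cyp2w1 and Cyp4f37 on the right, and Cyp7b1 and Cyp4f18 lie lowest on the left.

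**Figure D3:**
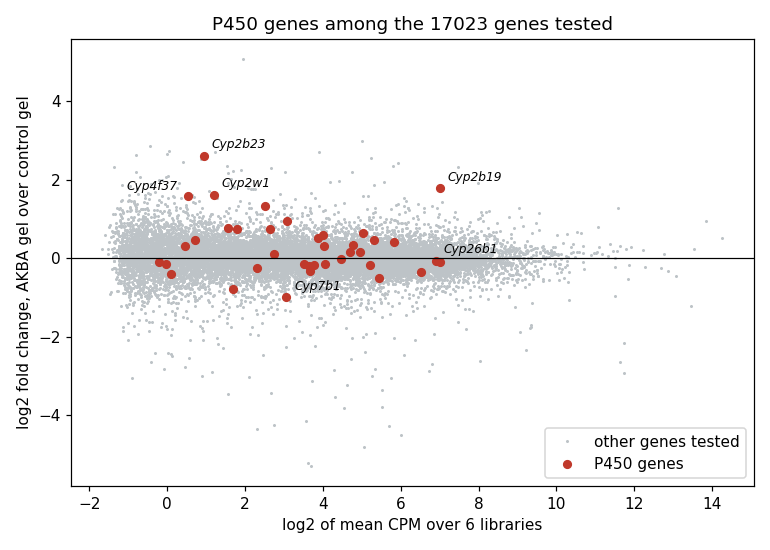
Log2 fold change (AKBA over control, vertical axis) against mean level in log2 CPM (horizontal axis) for the 17023 genes tested in grey, with the P450 genes marked and the named ones labelled. Cyp2b19, Cyp2b23, Cyp2w1 and Cyp4f37 lie highest of the marked points, which spread to both sides of 0.

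Cyp2b19, an arachidonic acid epoxygenase of the differentiated epidermal layers, showed the difference with the most counts behind it. AKBA replicates 1 to 3 held 203, 296 and 99.4 CPM, and control replicates 1 to 3 held 80.0, 53.4 and 41.0 CPM. Every AKBA library thus lay above every control library, although the third AKBA library was much closer to the controls than the second. The means were 200 ± 98.3 against 58.1 ± 19.9 CPM (SD), a ratio of 3.43, and the log2 fold change was 1.78 ± 0.41 (SE), with a 95% interval of 0.83 to 2.72. The adjusted p was 0.331 with edgeR and 0.00126 with DESeq2. The authors' deposited table gives a log2 fold change of 1.76 with an adjusted p of 0.000157. Leaving out 1 library in turn gave log2 fold changes of 1.38 (without AKBA replicate 2) to 2.11 (without AKBA replicate 3).

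Cyp2b23, of the same subfamily as Cyp2b19, had the largest log2 fold change of the members at far lower counts. Its AKBA libraries held 79, 95 and 25 counts and its controls 22, 13 and 0 counts, or 3.88, 5.05 and 1.07 CPM against 1.05, 0.568 and 0 CPM. The groups did not overlap, but AKBA replicate 3 and control replicate 1 were nearly equal. The log2 fold change was 2.60 ± 0.90 (SE), with a 95% interval of 0.51 to 4.70, and the adjusted p was 0.339 with edgeR and 0.415 with DESeq2. It was 3.49 without control replicate 1 and 2.03 without control replicate 3, the library with no count. The authors' deposited table lists it as called, with a log2 fold change of 2.18 and an adjusted p of 0.0347. Of its transcript 50-mers, 4.44% also occur in other P450 transcripts, Cyp2b19 being the closest, so a part of its reads could have been split between both genes.

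Both genes lie in the CYP2 cluster of chromosome 7 (GRCm38, GENCODE M21), where 7 of the 39 members sit. Cyp2b23 spans 26665227 to 26686437 on the minus strand and Cyp2b19 spans 26757142 to 26772630 on the plus strand. The third CYP2B member, Cyp2b10 (25897620 to 25926624), is a known target of the receptor CAR and did not follow them. It held 39.5, 40.4 and 18.9 CPM with AKBA and 25.4, 24.5 and 37.9 CPM with control gel, a log2 fold change of 0.17 ± 0.31 (SE) with a 95% interval of -0.54 to 0.88. The difference between these genes' responses was not tested. The 250 bases before the RefSeq start of each CYP2B member (GRCm38.p6) are printed 5′ to 3′ on the gene's strand to show how alike these promoters are. Capitals mark the runs of 10 bases that all 3 windows hold, CTTTTGTCCT and AGTTGCATAA.
Cyp2b19, chr7:26756892-26757141, plus strand: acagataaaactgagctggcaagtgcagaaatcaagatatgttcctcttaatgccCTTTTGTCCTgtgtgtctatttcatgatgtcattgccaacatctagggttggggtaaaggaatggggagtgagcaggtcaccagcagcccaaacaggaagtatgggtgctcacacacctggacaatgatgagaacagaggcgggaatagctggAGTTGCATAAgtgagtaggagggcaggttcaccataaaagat
Cyp2b23, chr7:26686431-26686680, minus strand: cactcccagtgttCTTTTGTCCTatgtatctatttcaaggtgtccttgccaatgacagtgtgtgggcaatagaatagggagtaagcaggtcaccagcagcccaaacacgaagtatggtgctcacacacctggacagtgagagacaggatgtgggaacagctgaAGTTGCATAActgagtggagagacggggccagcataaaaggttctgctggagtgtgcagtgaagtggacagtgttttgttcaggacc
Cyp2b10, chr7:25897408-25897657, plus strand: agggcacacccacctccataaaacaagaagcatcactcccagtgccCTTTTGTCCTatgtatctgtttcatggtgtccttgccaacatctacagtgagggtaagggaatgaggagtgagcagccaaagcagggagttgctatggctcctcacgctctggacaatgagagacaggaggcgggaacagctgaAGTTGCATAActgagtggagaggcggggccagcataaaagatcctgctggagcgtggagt

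Over a global alignment, the window of Cyp2b19 was identical to that of Cyp2b23 at 69.6% of bases and to that of Cyp2b10 at 74.4%, and the other pair stood at 73.2%. The run AGTTGCATAA began 42 bases before the start of Cyp2b19, 87 before Cyp2b23 and 60 before Cyp2b10, and 12 of 27025 RefSeq promoter windows of that length hold it (0.0444%). CTTTTGTCCT began 195, 237 and 204 bases before these starts and occurs in 25 windows (0.0925%). These distances show that the windows are offset from each other, and the identities count matches over all 250 bases, so the offset lowers them. Which 2 of these promoters are most alike therefore cannot be read from the percentages. Across the members, 32 of 39 had a promoter window by symbol. The letters TNGCGTG, the core bound by the aryl hydrocarbon receptor and its partner ARNT, were found on neither strand in any of the 32 (4.16% of all windows hold them). The windows reach only 250 bases before the start, so matches farther away were not searched. Cyp1a1, inducible through this receptor, was among the 32, so the absence says nothing on whether the receptor acts on a member. The AP-1 motif TGANTCA was found in 4 (Cyp3a13, Cyp4b1, Cyp4f16 and Cyp4f37; 6.87% of all windows), TATAAA in 4 (Cyp1a1, Cyp26b1, Cyp2e1 and Cyp8b1; 13.0%) and CCAAT in 16 (34.5%).

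**Figure D4:**
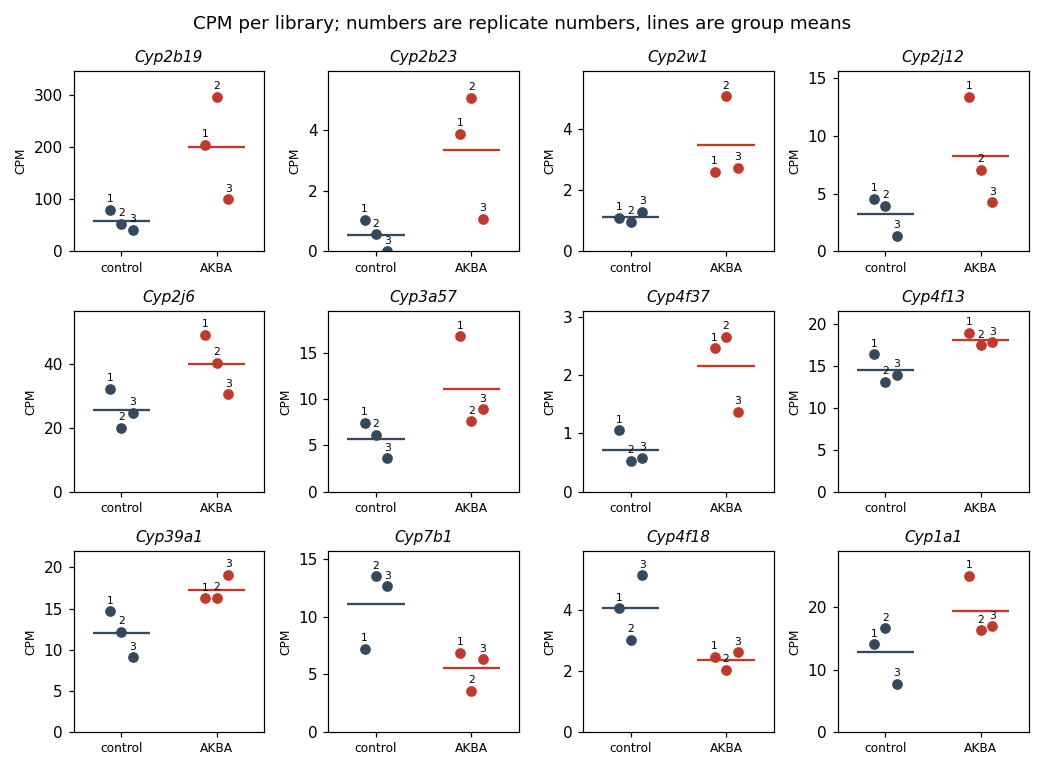
Level in CPM (vertical axis, starting at 0) of 12 P450 genes in each AKBA gel and control gel library, with horizontal lines at the group means. The groups are apart for Cyp2b19, Cyp2b23, Cyp2w1 and Cyp7b1, whereas those of Cyp1a1 and Cyp2j12 overlap.

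Cyp2w1, a CYP2 gene best known from fetal intestine and colorectal tumours, was the other member that DESeq2 called. Its AKBA libraries stood at 2.60, 5.05 and 2.73 CPM and its control libraries at 1.10, 0.961 and 1.29 CPM. All 3 controls were low and close together, and the second AKBA library was the highest. The means differed 3.10-fold, and the log2 fold change was 1.62 ± 0.33 (SE), with a 95% interval of 0.85 to 2.40 and an adjusted p of 0.331 with edgeR and 0.0099 with DESeq2. In the authors' deposited table its log2 fold change is 1.52 with an adjusted p of 0.00759. It ranged from 1.25 to 1.79 when 1 library was left out.

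These 3 genes were compared with the markers of the epidermal layers. The summed suprabasal keratinocyte markers, Krt10 and Lor among them, stood at 52136, 61215 and 32864 CPM with AKBA and at 36777, 23813 and 27637 CPM with control gel. All 6 of these markers had a positive log2 fold change with a median of 0.73 (50.4% of all genes were positive). At an unadjusted p under 0.05, 3 of 6 were higher, beside 6.45% of all genes. AKBA replicate 2 was the highest library, and AKBA replicate 3 the lowest AKBA library, for both Cyp2b19 and the suprabasal sum. Per 1000 CPM of these markers, a measure chosen after the values had been seen, Cyp2b19 stood at 3.90, 4.83 and 3.02 CPM with AKBA and 2.18, 2.24 and 1.48 CPM with control gel, and the groups did not overlap on this scale either. Cyp2w1 stood at 0.0499, 0.0825 and 0.0830 CPM against 0.0298, 0.0403 and 0.0468 CPM, again with no overlap. AKBA replicate 1 (0.0499) lay close above control replicate 3 (0.0468). Cyp2b23 did not overlap on this scale either, with AKBA replicate 3 (0.0324) just above control replicate 1 (0.0285). The summed basal keratinocyte markers stood at 10854 to 15248 CPM with AKBA and 14170 to 32900 CPM with control gel, with control replicate 3 the highest. These 3 genes already did not overlap in CPM, and the share of all genes without overlap on the marker scale was not computed. The values per 1000 CPM of markers are therefore a description only. What part these markers have in the P450 differences was not tested.

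**Figure D5:**
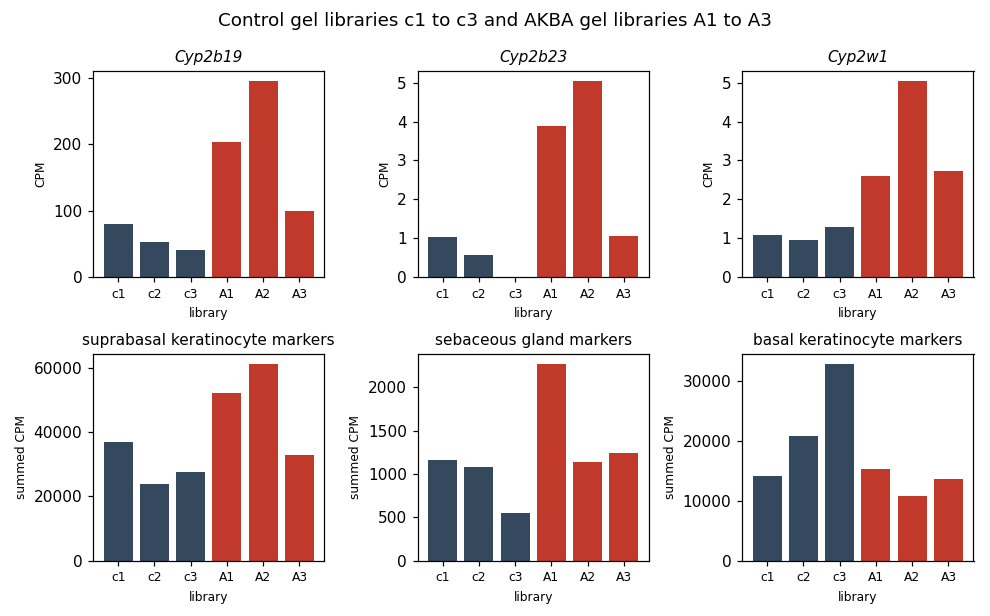
Levels in CPM by library of Cyp2b19, Cyp2b23 and Cyp2w1 beside the summed suprabasal, sebaceous and basal keratinocyte markers, each panel with its own axis. Cyp2b19 and the suprabasal sum are both highest in AKBA replicate 2, and the sebaceous sum is highest in AKBA replicate 1.

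The 4 CYP2J genes belong to a family of arachidonic acid epoxygenases and lie within 1 stretch of chromosome 4 (96099318 to 96591578). All 4 had positive log2 fold changes, as did 50.4% of all genes and 55.3% of the members tested. Cyp2j6, the highest of them per length (9.06 FPKM), held 49.0, 40.3 and 30.4 CPM with AKBA and 32.1, 19.9 and 24.7 CPM with control gel. The third AKBA library fell below the first control, so the groups overlapped, and the log2 fold change was 0.64 ± 0.23 (SE; edgeR adjusted p 0.339, DESeq2 adjusted p 0.182). Cyp2j12 held 13.3, 7.07 and 4.26 CPM against 4.57, 3.93 and 1.34 CPM, with a log2 fold change of 1.32 ± 0.53 (SE; edgeR adjusted p 0.354, DESeq2 adjusted p 0.151). Leaving out AKBA replicate 1 gave 0.78, and leaving out control replicate 3 gave 0.95. The authors' deposited table gives 1.27 with an adjusted p of 0.134 for this gene and does not call it. Cyp2j9 (0.74 ± 0.33, SE) and Cyp2j8 (0.76 ± 0.46, SE) overlapped between the groups, and neither was at an unadjusted p under 0.05.

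Cyp3a57, a gene of the CYP3A family of drug-metabolising enzymes, held 16.8, 7.60 and 8.90 CPM with AKBA and 7.43, 6.16 and 3.59 CPM with control gel. The groups did not overlap, though the second AKBA library and the first control were close. Its log2 fold change was 0.95 ± 0.37 (SE; edgeR adjusted p 0.349, DESeq2 adjusted p 0.175), and 8.63% of its 50-mers also occur in other P450 transcripts, Cyp3a59 being the closest. Cyp3a13 stood at 15.6 ± 5.19 against 17.4 ± 5.99 CPM (SD), a log2 fold change of -0.16 ± 0.32 (SE). Markers of the sebaceous gland moved in the same direction as Cyp2j12 and Cyp3a57. Their sum was 2268, 1138 and 1242 CPM with AKBA and 1162, 1084 and 544 CPM with control gel. All 10 had a positive log2 fold change with a median of 0.69 (50.4% of all genes were positive). At an unadjusted p under 0.05, 4 of 10 were higher, beside 6.45% of all genes. Per 1000 CPM of these markers, Cyp2j12 stood at 5.88, 6.21 and 3.43 CPM with AKBA and at 3.93, 3.62 and 2.47 CPM with control gel, which overlapped. For Cyp3a57 the values were 7.40, 6.68 and 7.17 CPM against 6.39, 5.68 and 6.61 CPM. These did not overlap, but AKBA replicate 2 (6.68) lay only just above control replicate 3 (6.61), so the groups were close on this scale. Cyp3a57 already did not overlap in CPM, and the share of all genes without overlap on this scale was not computed. The part of the sebaceous gland in these differences was not tested.

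The other CYP2 genes showed smaller differences. Cyp2e1 held 155, 129 and 92.4 CPM with AKBA and 177, 80.9 and 144 CPM with control gel, a log2 fold change of -0.10 ± 0.30 (SE) with a 95% interval of -0.79 to 0.60. Its lowest and its highest library were both controls. Cyp2g1 held 74.2, 49.2 and 71.3 CPM against 80.3, 44.9 and 20.6 CPM (0.42 ± 0.43, SE), and its spread came from the controls. Cyp2f2, best known from the airway, stood at 34.9 ± 4.65 against 39.5 ± 11.4 CPM (SD), a log2 fold change of -0.18 ± 0.22 (SE). Cyp2s1, a P450 of epithelia, was the steadiest of these, with 21.8, 21.4 and 22.5 CPM against 21.4, 24.8 and 20.5 CPM and a log2 fold change of -0.02 ± 0.12 (SE). Its 95% interval ran from -0.29 to 0.25. Both Cyp2f2 and Cyp2s1 overlap genes on the other strand, and no source used here says whether the counting used strand. Of the 15 CYP2 genes tested other than Cyp2r1, 10 had a positive log2 fold change (50.4% of all genes did). Of these, 5 were at an unadjusted p under 0.05, and no CYP2 gene was lower at that threshold (6.45% and 7.01% of all genes).

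The CYP4 family, whose members hydroxylate fatty acids and eicosanoids, went in both directions. It had 3 positive and 5 negative log2 fold changes (50.4% and 49.6% of all genes), with a median of -0.17. Cyp4f39, the barrier lipid enzyme, held 95.2, 74.1 and 73.8 CPM with AKBA and 82.9, 88.6 and 141 CPM with control gel. Only the third control stood apart, and the log2 fold change was -0.36 ± 0.22 (SE) with a 95% interval of -0.87 to 0.15. Of 14 genes of the acylceramide pathway that Cyp4f39 serves, none was higher or lower at an unadjusted p under 0.05 (6.45% and 7.01% of all genes). Their median log2 fold change was -0.28. The genes of that list with the most counts were the fatty acid elongase Elovl4 (0.36 ± 0.24, SE) and the lipid transporter Abca12 (-0.30 ± 0.27, SE).

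Cyp4f37 held 2.45, 2.66 and 1.36 CPM with AKBA and 1.05, 0.524 and 0.575 CPM with control gel. The groups did not overlap, and the log2 fold change was 1.58 ± 0.39 (SE; edgeR adjusted p 0.331, DESeq2 adjusted p 0.0511), with a range of 1.39 to 1.97 when 1 library was left out. The authors' deposited table lists 1.32 with an adjusted p of 0.0282. Its neighbour Cyp4f16 on chromosome 17 went the other way, with 10.9, 9.99 and 13.3 CPM against 13.8, 15.2 and 13.8 CPM and a log2 fold change of -0.32 ± 0.15 (SE), groups again not overlapping. These 2 genes share most 50-mers with each other: 19.7% of the 50-mers of Cyp4f37 and 17.4% of those of Cyp4f16 occur in other P450 transcripts, so their counts are uncertain where reads could be assigned to either. Cyp4f13 of the same cluster held 18.9, 17.4 and 17.8 CPM with AKBA and 16.4, 13.1 and 13.9 CPM with control gel, a small difference without overlap (0.32 ± 0.13, SE; edgeR adjusted p 0.356). Cyp4f17 (-0.20 ± 0.23, SE), Cyp4b1 (0.33 ± 0.17, SE) and Cyp4v3 (-0.15 ± 0.17, SE) overlapped between the groups.

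Cyp4f18, which inactivates leukotriene B4 in myeloid cells, was lower with AKBA. Its libraries held 2.45, 2.02 and 2.60 CPM with AKBA and 4.05, 3.01 and 5.13 CPM with control gel. Every AKBA library lay below every control, and the log2 fold change was -0.78 ± 0.26 (SE; edgeR adjusted p 0.339, DESeq2 adjusted p 0.193). It overlaps Zfp961 on the other strand. Thromboxane synthase (Tbxas1), a P450 of platelets and macrophages outside the name pattern, held 5.59, 5.90 and 5.11 CPM against 10.9, 7.38 and 13.3 CPM, a log2 fold change of -0.92 ± 0.23 (SE; edgeR adjusted p 0.331, DESeq2 adjusted p 0.0351). Macrophage markers summed to 643 to 829 CPM with AKBA and 937 to 1146 CPM with control gel. All 6 were negative (49.6% of all genes), with a median log2 fold change of -0.43. At an unadjusted p under 0.05, 3 of 6 were lower, beside 7.01% of all genes. The part of macrophage markers in the values of Cyp4f18 and Tbxas1 was not tested. The other P450 genes outside the pattern, the lanosterol demethylase Cyp51 (277 ± 63.8 against 292 ± 53.4 CPM, SD) and prostacyclin synthase Ptgis (1.96 ± 1.21 against 1.47 ± 0.697 CPM, SD), overlapped between the groups.

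Among the enzymes of sterol and bile acid metabolism, Cyp7b1 and Cyp39a1, which both hydroxylate oxysterols, went in opposite directions. Cyp7b1 (chromosome 3, 18071950 to 18243338) held 6.87, 3.56 and 6.31 CPM with AKBA and 7.24, 13.5 and 12.6 CPM with control gel. The groups did not overlap, although the first control lay just above the first AKBA library. The log2 fold change was -0.99 ± 0.32 (SE), with a 95% interval of -1.74 to -0.25 and an adjusted p of 0.334 with edgeR and 0.0782 with DESeq2, and it was -1.22 without control replicate 1 and -0.76 without AKBA replicate 2. Cyp39a1 held 16.2, 16.3 and 19.1 CPM against 14.7, 12.2 and 9.05 CPM, without overlap, a log2 fold change of 0.53 ± 0.19 (SE; edgeR adjusted p 0.339, DESeq2 adjusted p 0.238). Cyp27a1, the mitochondrial sterol hydroxylase, held 54.1, 43.4 and 40.7 CPM against 45.5, 22.6 and 31.7 CPM, which overlapped (0.47 ± 0.25, SE). Cyp46a1 and Cyp8b1 stayed near 1 CPM in both groups, at 1.51 ± 0.502 against 1.21 ± 0.478 CPM and 0.931 ± 0.29 against 1.02 ± 0.0245 CPM (SD).

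For retinoids, Cyp26b1 held 111, 120 and 123 CPM with AKBA and 110, 175 and 83.4 CPM with control gel. The AKBA libraries were tightly grouped inside the wider range of the controls, and the log2 fold change was -0.06 ± 0.25 (SE) with a 95% interval of -0.64 to 0.52. Cyp26a1, the sister enzyme below the limit, had 6 counts over all libraries. Of 16 genes that carry or convert retinoids, 1 was higher at an unadjusted p under 0.05 (6.45% of all genes), the retinol dehydrogenase Rdh11 (0.53 ± 0.19, SE). In the other direction 3 were lower (7.01% of all genes), and the list's median was 0.06. The lower ones were the binding proteins Fabp5 (-0.97 ± 0.37, SE) and Crabp2 (-0.84 ± 0.33, SE) and the esterifying enzyme Lrat (-0.59 ± 0.24, SE). None of the 16 passed adjustment with either tool.

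The vitamin D enzymes were low. Cyp27b1, which makes the active hormone, held 1.23, 3.67 and 6.22 CPM with AKBA and 2.14, 3.84 and 0.575 CPM with control gel. Libraries of both groups spread widely, and the 95% interval of its log2 fold change (0.76 ± 0.71, SE) ran from -0.91 to 2.42, so the spread between libraries left both directions possible. Cyp2r1, which acts one step earlier, stood at 1.91 ± 0.693 against 1.38 ± 0.201 CPM (SD; log2 fold change 0.47 ± 0.32, SE), and the degrading enzyme Cyp24a1 had 14 counts in all and was no member. Of 5 other genes of vitamin D synthesis and signalling tested, Dhcr7 (0.37 ± 0.15, SE) was higher and Pdia3 (-0.33 ± 0.14, SE) lower at an unadjusted p under 0.05 (6.45% and 7.01% of all genes). The steroid hormone genes Cyp17a1 (28.9, 25.4 and 27.8 CPM against 34.6, 23.4 and 16.1 CPM) and Cyp11a1 (4.50 ± 1.07 against 5.38 ± 0.806 CPM, SD) overlapped between the groups, as did the orphan enzyme Cyp20a1 (12.9 ± 0.606 against 14.4 ± 1.69 CPM, SD).

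Cyp1a1 and Cyp1b1, both inducible through the aryl hydrocarbon receptor, had values of opposite sign and overlapping groups. Cyp1a1 held 25.1, 16.3 and 17.0 CPM with AKBA and 14.0, 16.6 and 7.71 CPM with control gel, a log2 fold change of 0.60 ± 0.30 (SE) with a 95% interval of -0.09 to 1.29. Cyp1b1 held 41.4, 28.0 and 39.8 CPM against 40.4, 74.7 and 38.5 CPM, where the second control alone stood high, and its log2 fold change was -0.49 ± 0.28 (SE). The receptor's transcript Ahr stood at 88.4 ± 11.7 against 65.9 ± 21.6 CPM (SD). Of 9 other known targets of this receptor, 1 was higher and 3 lower at an unadjusted p under 0.05 (6.45% and 7.01% of all genes). The median log2 fold change of the 9 was -0.40. The aldehyde dehydrogenase Aldh3a1 held 79.7, 82.5 and 65.3 CPM against 39.2, 31.2 and 25.5 CPM and passed DESeq2's test (log2 fold change 1.25 ± 0.18, SE; DESeq2 adjusted p 1.26e-05, edgeR adjusted p 0.331). Tiparp, a repressor of the receptor, held 30.5, 32.7 and 32.5 CPM against 46.2, 53.6 and 92.1 CPM and passed it in the other direction (31.9 ± 1.25 against 64.0 ± 24.7 CPM, SD; DESeq2 adjusted p 0.0155, edgeR adjusted p 0.331). Serpinb2 (-1.36 ± 0.55, SE) and Slc7a5 (-0.83 ± 0.31, SE) were the others that were lower.

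The 12 redox partners tested had a median log2 fold change of 0.16. Beside 6.45% of all genes higher and 7.01% lower at an unadjusted p under 0.05, 5 partners were higher and none lower. These were cytochrome b5 (Cyb5a, 0.39 ± 0.15, SE), the reductases Cyb5r2 (0.71 ± 0.29, SE) and Cyb5r4 (0.43 ± 0.17, SE), and the heme-binding P450 partners Pgrmc1 (0.33 ± 0.11, SE) and Pgrmc2 (0.59 ± 0.18, SE), and no partner passed adjustment with edgeR or DESeq2. Por, the main electron donor, held 145, 130 and 137 CPM with AKBA and 149, 153 and 176 CPM with control gel, slightly lower without overlap (-0.22 ± 0.11, SE). The genes of the list with the most counts, Cyb5r3 (0.05 ± 0.12, SE) and Cyb5b (-0.01 ± 0.13, SE), overlapped between the groups. The mitochondrial donor Fdx1 was level, at 13.6 ± 0.848 against 13.5 ± 0.491 CPM (SD; log2 fold change 0.01 ± 0.12, SE). Of 15 receptors and partners that sense P450 substrates, Rarg was higher (0.35 ± 0.12, SE) and Ppard lower (-0.72 ± 0.23, SE) at an unadjusted p under 0.05 (6.45% and 7.01% of all genes). Rxra, the partner of many of them, stood at 0.08 ± 0.11 (SE), and the xenobiotic receptor Nr1i2 had no count. Among 4 epoxide hydrolases, which act on the products of the epoxygenases, Ephx1 was higher at that threshold, at 64.9 ± 2.29 against 49.5 ± 8.78 CPM (SD; 0.39 ± 0.14, SE), and Ephx3 overlapped between the groups (-0.44 ± 0.27, SE).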

How the data were processed

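The authors deposited 1 table with whole-number counts and FPKM values per gene and library, beside their own log2 fold changes, p-values and adjusted p-values. The deposited FPKM values served for comparisons between genes, and the counts for all tests. CASAVA 1.8, RSEM and edgeR were used on GRCm38 per the submitters' processing notes, with roles and settings not given in the sources used here. All 6 libraries entered the fit. Of the 47729 rows, 19134 had no count. The 2-sided quasi-likelihood F test of edgeR 4.0.16 (R 4.3.3) gave the fold changes, after its default filter on low counts and TMM scaling, with Benjamini-Hochberg adjustment over 17023 genes. The standard error is the size of the log2 fold change divided by the square root of F. DESeq2 1.42.0 was an alternative. Only the main edgeR fit was tested on simulated data. The members and lists were chosen with earlier results of these data known. Members were named at an unadjusted p under 0.05, at a DESeq2 adjusted p under 0.05, at a mean of at least 10 CPM, next to the limit of 30 counts, or as 15 preset genes of skin, retinoid, vitamin D and sterol metabolism. List genes were named at an unadjusted p under 0.05 or for their level. Positions and 50-mers are from GENCODE M21 (39 of 39 member identifiers found), promoters from RefSeq. At 19066045 to 22760432 counts per library, 3 counts equal 0.132 to 0.157 CPM before TMM scaling, a floor for counting error alone. Within a group, chi-square over degrees of freedom between libraries was 30.8 to 91.7, above sampling noise. Each library counted as 1 sample, although this spread cannot show that the libraries came from separate animals. Alternatives were DESeq2's test, its size factors in edgeR, no filter, a minimum of 5 CPM in 3 libraries, a block for replicate number, each library left out, and AKBA replicate 2 and control replicate 3 left out together.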

Additional observations from a re-analysis of the deposited data

How the results depend on the processing

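DESeq2's Wald test called 89 genes higher and 203 lower, 2 of the higher ones members, where edgeR called 0 (1098 higher and 1193 lower at an unadjusted p under 0.05). The filter of 5 CPM left 26 members, of which 5 were higher and 1 lower at an unadjusted p under 0.05 and 4 were higher without overlap (7.11%, 7.42% and 9.70% of all genes), since fewer genes were tested. Without AKBA replicate 2 and control replicate 3, with fewer samples, these counts were 4 higher, 0 lower, 12 higher without overlap and 5 lower without overlap, where all genes gave 1.51%, 2.23%, 17.3% and 15.4%. Leaving out 1 library gave 4 to 14 members higher and 1 to 3 lower at an unadjusted p under 0.05, 7 to 15 higher and 3 to 5 lower without overlap (over all genes 3.13% to 8.95%, 3.76% to 9.12%, 11.9% to 19.2% and 11.7% to 18.3%), and 0 to 1 genes higher and 0 to 13 lower after adjustment, the last without control replicate 1. The members' median log2 fold change lay between 0.04 and 0.32 over these. With the replicate block, 11 members were higher (5.26% of all genes) and 2 lower (5.65%) at an unadjusted p under 0.05 and 0 genes were called. Deviations of same-numbered libraries correlated at 0.0724, 0.0185 and -0.33, and those of differently numbered ones at -0.48 to 0.43. They gave no sign that the numbers pair the samples, but with 3 libraries per group they cannot exclude it. Of the 31 members for which single values were recomputed, 9 turned direction under some setting. With the replicate block Cyp26b1 stood at 0.0086. When 1 library, or the pair above, was left out, log2 fold changes ranged from -0.36 to 0.16 for Cyp2e1, -0.28 to 0.28 for Cyp26b1, -0.40 to 0.020 for Cyp2f2, -0.0027 to 0.46 for Cyp2b10, -0.081 to 0.48 for Cyp17a1, -0.076 to 0.056 for Cyp2s1, -0.37 to 0.14 for Cyp3a13, -0.37 to 0.15 for Cyp4f17 and -0.40 to 0.048 for Cyp11a1. The cause was not tested.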
